A study of Mus musculus with 32 samples.

Results

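The nuclear-encoded subunits of the 5 complexes of oxidative phosphorylation were described across 8 groups of mouse kidney cortex. Members were chosen by gene symbol, namely the Nduf genes of complex I, Sdhb, Sdhc and Sdhd of complex II, the Uqcr genes of complex III, the Cox4 to Cox8 genes with a letter after the digit of complex IV and the Atp5 genes of complex V, leaving out pseudogene symbols. A member also had at least 0.5 CPM (counts scaled to the total count of the library) in at least 4 mice. Of the 32544 genes in the count table, 81 had such a symbol and 79 passed the CPM minimum, 37 of complex I, 3 of complex II, 8 of complex III, 14 of complex IV and 17 of complex V. The 2 that did not pass were the testis isoforms Cox7b2 and Cox8c. The symbol rule was not a perfect roster of subunits. It missed Sdha, Cyc1, Cox4i1, Cox4i2 and Ndufab1, among others, and it took in Atp5s and Atp5sl, which are not ATP synthase subunits, Ndufa4, whose product is associated with complex IV, its paralog Ndufa4l2, and Cox7a2l, a supercomplex factor.

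RNA was sequenced from the kidney cortex of 32 mice aged 25 weeks of the strain C57BL/6J-Col4a3tm1Dec, with 4 mice in each of 8 groups given by sex, genotype and treatment. Alport mice were Col4a3-/-, which lack the α3 chain of the glomerular basement membrane collagen, and the control mice were Col4a3+/-, so that every mouse carried at least 1 null allele. Each genotype received vehicle or nicotinamide riboside (NR), an NAD+ precursor given in the diet. The comparisons asked how the Alport genotype and NR related to the transcript levels of each complex, in males and females separately.

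Complex I and complex II pass electrons from NADH and succinate to ubiquinone, complex III passes them to cytochrome c, complex IV passes them to oxygen, and complex V makes ATP from the proton gradient. All but complex II also hold subunits that are encoded by mitochondrial DNA. Proximal tubule cells, the main cell type of the kidney cortex, are rich in mitochondria and rely on oxidative phosphorylation for solute transport.

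Promoter windows from RefSeq (GRCm38, 250 bases before to 50 bases after the start) were matched for 64 of the 79 members, with 69 windows in all. They were searched on both strands for the letters CGCATGCG (NRF1), CCGGAAG (GABPA and other ETS factors), AAGATGGCG (YY1), TCAAGGTCA (ERR) and GGTCANAGG (PPAR direct repeat), motifs of factors known for regulating respiratory genes. At least 1 of the 5 was present in 42% of member windows and in 13.3% of all 32851 windows. The ETS letters were in 23.2% against 8.86%, the NRF1 letters in 13% against 1.87%, and the YY1 letters in 10.1% against 1.4%. The ERR and PPAR letters were each in 2 of the 69 member windows (2.9%), against 0.423% and 1.72% of all windows. A member of each complex that carried a motif is shown here, with Cox6b2, the member with the largest NR difference, whose stretch carried none. The stretches are on the minus strand, upstream of the annotated start, at chr4:40279552-40279671 for Ndufb6, chr9:50603850-50603909 for Sdhd, chr4:116075072-116075190 for Uqcrh, chr5:115349019-115349138 for Cox6a1, chr2:73911327-73911446 for Atp5g3 and chr7:4753095-4753214 for Cox6b2. Capitals mark the ETS letters in Ndufb6, Sdhd and Uqcrh, the NRF1 letters in Cox6a1 and the ERR letters in Atp5g3, each as read 5′ to 3′ on the gene's strand.
Ndufb6: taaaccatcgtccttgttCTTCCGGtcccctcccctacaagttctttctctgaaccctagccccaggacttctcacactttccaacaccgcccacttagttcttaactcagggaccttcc
Sdhd: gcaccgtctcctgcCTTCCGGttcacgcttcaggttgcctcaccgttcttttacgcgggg
Uqcrh: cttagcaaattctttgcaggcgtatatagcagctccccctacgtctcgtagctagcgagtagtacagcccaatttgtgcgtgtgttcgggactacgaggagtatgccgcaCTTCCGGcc
Cox6a1: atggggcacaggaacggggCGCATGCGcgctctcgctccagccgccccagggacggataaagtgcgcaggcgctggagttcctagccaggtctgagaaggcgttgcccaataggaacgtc
Atp5g3: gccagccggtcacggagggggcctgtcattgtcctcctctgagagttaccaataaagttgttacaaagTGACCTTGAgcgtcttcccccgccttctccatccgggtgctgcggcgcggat
Cox6b2: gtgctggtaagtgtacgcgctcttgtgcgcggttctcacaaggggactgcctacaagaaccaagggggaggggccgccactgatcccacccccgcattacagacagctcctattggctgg
These matches describe the letters of the windows and not binding in these kidneys.

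Total counts per library were 16621944 to 27778797, and the members took 1.10% to 2.08% of them. Col4a3 still gave counts from the targeted allele. In vehicle-treated males it was at 54.6 to 83.2 CPM in Alport and 150.5 to 200.6 CPM in control mice, and in females at 57.8 to 79.2 and 139.5 to 163.6 CPM. Of the libraries labelled control males on NR, 2 (replicates 1 and 3, at 59.3 and 75.2 CPM) lay in the range of the vehicle-treated Alport males, and the calls, medians and Cox6b2 values that rest on that group are given with and without each of them. Replicate 2 (94.0 CPM) lay between the 2 vehicle-treated male ranges, and replicate 4 (159 CPM) in the control range. Summed immune markers were at 219 to 436 CPM in this group, 179 to 207 in vehicle-treated control and 1206 to 1606 in Alport males. Summed fibroblast markers were at 93.4 to 158, 64.2 to 86.7 and 850 to 1353 CPM. In control females on NR, Col4a3 was at 105.1 to 124.0 CPM, between the 2 vehicle-treated female ranges. The cause of the Col4a3 levels was not tested. The proximal tubule was present by its markers in every library. The summed level of 10 of its markers was 20112 to 22108 CPM in vehicle-treated control males and 7005 to 11263 CPM in Alport males, and 16369 to 18655 and 6889 to 11106 CPM in females.

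In vehicle-treated mice, the members were lower in Alport than in control kidneys, with the lowest median in complex II over members of all lengths. Among members of over 1200 bases the medians of complexes III and V were lower than that of complex II, as given further on. Of 78 members tested in males, 40 fell and 2 rose at an adjusted p under 0.05 (edgeR quasi-likelihood test with Benjamini-Hochberg adjustment over all genes tested), where 24% of all genes tested fell and 26.8% rose. The median log2 fold change of the members was −0.35, against −0.00 over all genes. In females 64 fell and 1 rose, against 21.8% and 23.9% of all genes, with a median of −0.48. All 4 Alport mice lay below all 4 controls for 27 of 78 members in males, where 28.4% of all genes did, and for 59 of 78 in females, where 23.7% did. The calls overlapped, since 39 members fell in both sexes, 97.5% of those that fell in males and 60.9% of those that fell in females. Ndufv3 fell in males only by this threshold (log2 −0.25) and had a log2 fold change of −0.26 with adjusted p = 0.0601 in females. A test of the difference between the sexes called no member (see the interaction of sex and genotype given after the NR comparisons).

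These directions are relative to TMM scaling. Scaling to total counts alone moved the median of all genes by 0.34 in males and 0.26 in females, and the members' medians then were −0.01 and −0.22, which is −0.35 and −0.49 relative to all genes. Under that scaling 18 members fell and 2 rose in males, and 28 fell and 1 rose in females. The shares of all genes given above are from the fits with TMM factors and are no reference for these counts.

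By complex, the 3 members of complex II fell in both sexes, with median log2 fold changes of −0.58 in males and −0.61 in females. Of 17 members of complex V, 11 fell in males and 15 in females, with medians of −0.40 and −0.49. Of 37 members of complex I, 19 fell in males and 32 in females, with medians of −0.35 and −0.48. Complex III had 3 of 8 lower in males and 7 of 8 in females, with medians of −0.30 and −0.47. Complex IV had the fewest calls for its size, 4 of 13 tested in males and 7 of 13 in females, with medians of −0.26 and −0.44.

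**Figure D1:**
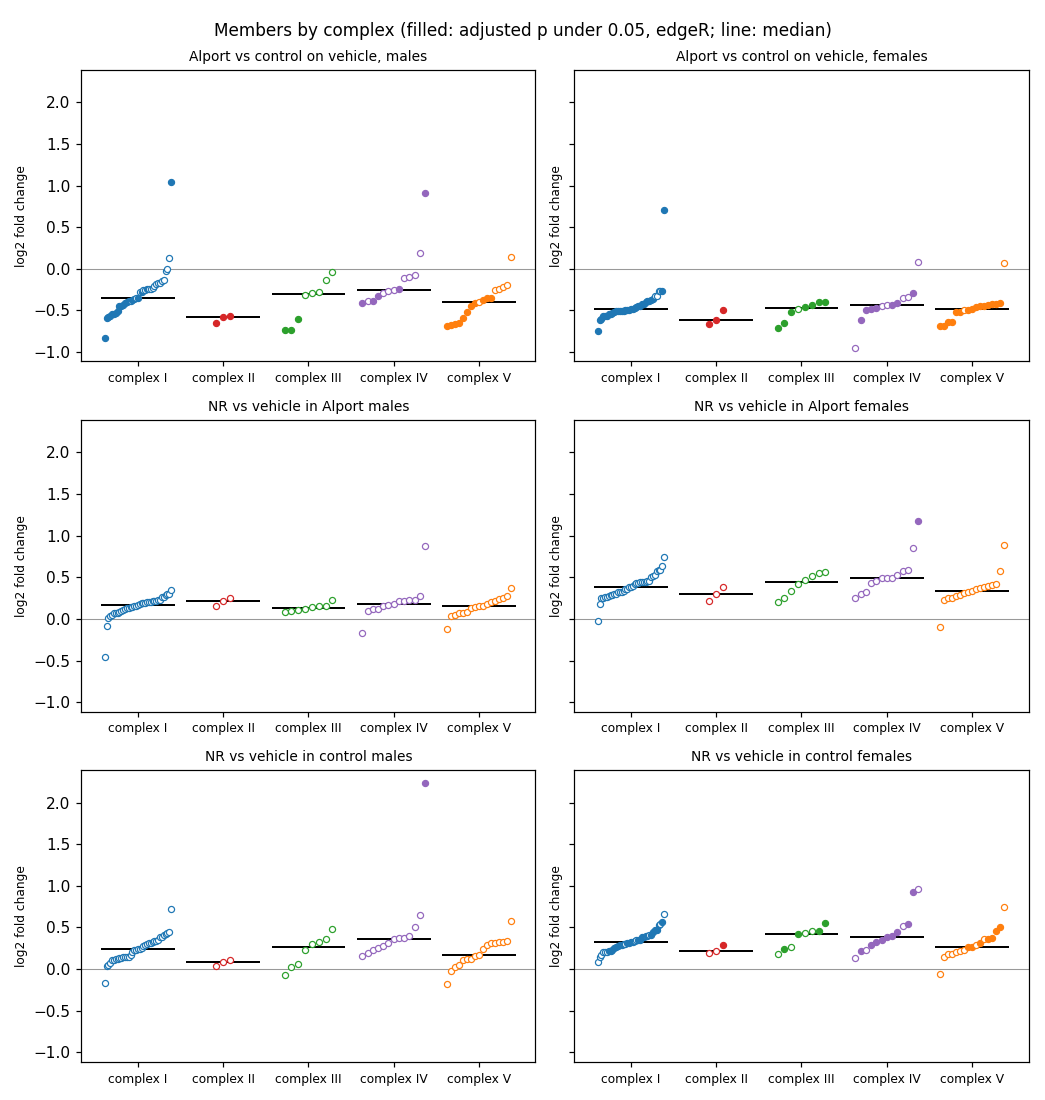
Log2 fold change of each member (points, filled where the adjusted p was under 0.05) by complex in the comparisons of genotype and of NR, with medians as lines. In vehicle-treated Alport mice the complex medians lie between −0.26 and −0.58 in males and between −0.44 and −0.61 in females.

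The level of each complex in a mouse was taken as the mean log2 CPM of its members. In males, complex II was at 8.35 ± 0.06 (SD, n = 4) in control and 7.66 ± 0.18 in Alport mice, with no overlap between the groups. Complex V was at 7.57 ± 0.17 and 7.09 ± 0.15, also without overlap. Complex I (6.59 ± 0.20 and 6.22 ± 0.16), complex III (7.65 ± 0.22 and 7.18 ± 0.19) and complex IV (5.41 ± 0.23 and 5.22 ± 0.17) overlapped between the male groups. In females no complex overlapped, and the differences were −0.64 for complex II, −0.56 for complex III, −0.53 for complex V, −0.48 for complex I and −0.39 for complex IV.

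By the mean log2 CPM, which counts each member alike whatever its level, complexes did not move in proportion in males. Measured from the mean of all members in the same mouse, complex II lay 1.43 to 1.80 log2 units above it in control males and 1.18 to 1.34 above it in Alport males, and complex IV lay at −1.40 to −1.31 in control and −1.22 to −1.08 in Alport males. In females the corresponding ranges overlapped, at 1.38 to 1.61 and 1.20 to 1.44 for complex II and at −1.22 to −1.02 and −1.11 to −0.99 for complex IV. With the log2 of the summed CPM in place of the mean, the distance of complex II from all members overlapped between the male groups. That of complex IV did not overlap. The members of complex II are also longer than those of complex IV, and the values by transcript length are given further on.

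**Figure D2:**
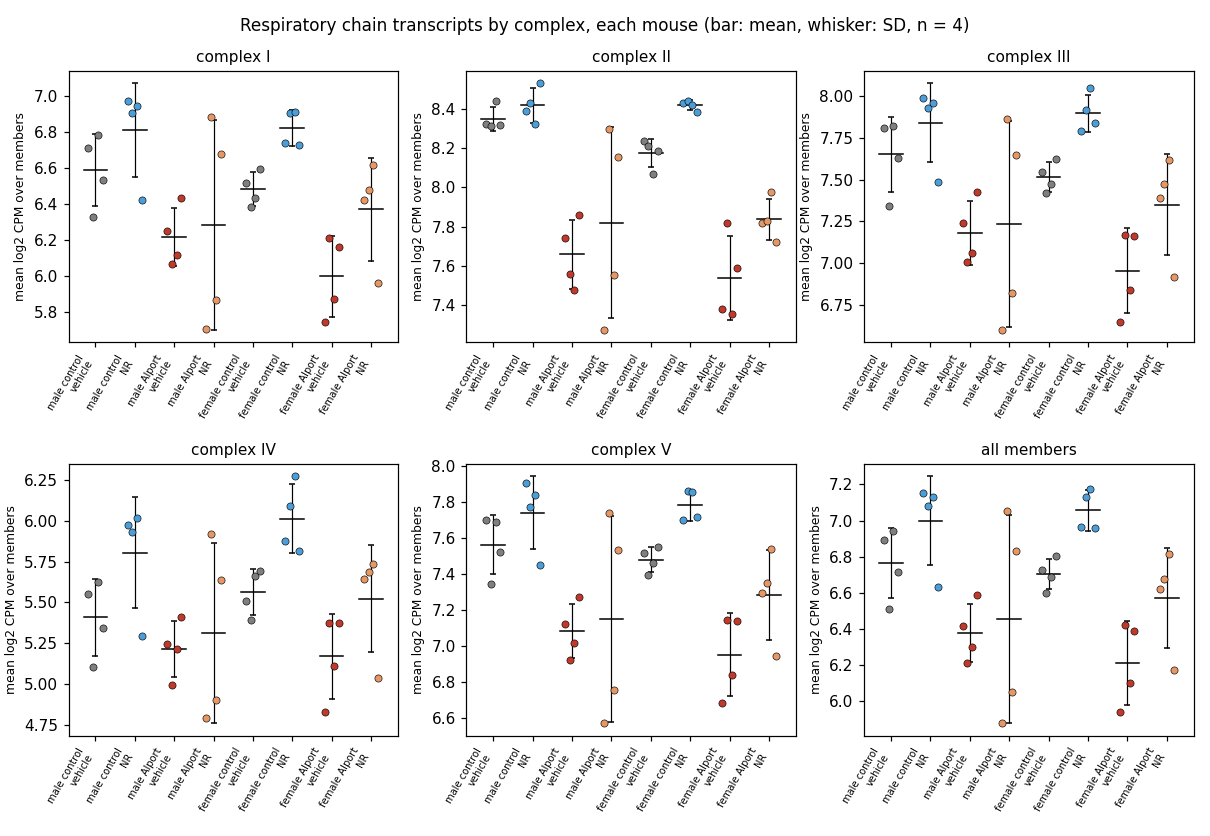
Level of each complex (mean log2 CPM of its members) by group, with 1 point per mouse and the mean and SD of 4 mice. Complex II in males runs from 8.31 to 8.44 in vehicle-treated control mice and from 7.47 to 7.86 in vehicle-treated Alport mice.

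Complex I takes electrons from NADH through the subunits of its N module and hands them over in the Q module. Ndufs1, the largest iron-sulfur subunit of the N module (chr1:63143596-63176833, minus strand, GRCm38), was at 364, 389, 362 and 368 CPM in the 4 vehicle-treated control males and at 199.8, 183, 171 and 229 CPM in the 4 Alport males. The groups did not overlap, and the highest Alport mouse was well below the lowest control. Its log2 fold change was −0.84 ± 0.0988 (SE, adjusted p = 1.71e-05 by edgeR).

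Ndufs1 showed the same pattern in females. It was at 325, 305, 267 and 294 CPM in control and at 151, 208, 156 and 177 CPM in Alport females, again with no overlap (log2 −0.74 ± 0.111, adjusted p = 3.57e-04). Other core subunits fell in males as well, among them Ndufv1 (−0.54), Ndufv2 (−0.44), Ndufs3 (−0.53), Ndufs7 (−0.50) and Ndufs8 (−0.45, log2 scale). Among the accessory subunits Ndufb5 (−0.59) and Ndufa10 (−0.58) fell most in males. Ndufa3, a small accessory subunit, was not called in either sex (0.13 in males and −0.32 in females).

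The complex I member that rose was Ndufa4l2, a paralog of Ndufa4 known as a hypoxia-inducible gene. It was at 2.55, 4.23, 2.37 and 2.24 CPM in control and 5.79, 5.11, 6.60 and 4.66 CPM in Alport males. All Alport males were above all controls (log2 1.04 ± 0.224, adjusted p = 0.00174). In females it was at 2.23 to 3.11 CPM in control and 3.66 to 5.76 CPM in Alport mice, without overlap (0.70 ± 0.195, adjusted p = 0.0124). Per transcript length it made up 0.755% ± 0.411 (SD, n = 4) of Ndufa4 and Ndufa4l2 together in control males and 1.99% ± 0.465 in Alport males, while Ndufa4 itself fell (log2 −0.44 in males).

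Complex II oxidizes succinate. Sdhb, its iron-sulfur subunit (chr4:140961203-140979193, plus strand, GRCm38), was at 358, 363, 380.3 and 333 CPM in control and 229, 198, 188 and 246 CPM in Alport males. The groups were far apart (log2 −0.65 ± 0.0999, adjusted p = 1.40e-04). In females it was at 332, 324, 294 and 301 CPM in control and 169.8, 243, 160.0 and 199 CPM in Alport mice, without overlap (−0.66 ± 0.124, adjusted p = 0.00142).

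The membrane anchors of complex II moved alike. Sdhd, whose promoter stretch with the ETS letters is shown above, was at 250.3 to 277 CPM in control and 147.5 to 183 CPM in Alport males, and Sdhc at 352 to 399 and 202 to 278 CPM. Neither anchor overlapped between genotypes in either sex. Sdhd fell by 0.58 on the log2 scale in males and 0.61 in females, and Sdhc fell by 0.57 in males and 0.50 in females. The flavoprotein Sdha, outside the symbol rule, fell as well (−0.70 in males and −0.74 in females, log2 scale).

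In complex III the large subunits fell in both sexes. Uqcrfs1, the Rieske iron-sulfur protein (chr13:30540308-30545362, minus strand, GRCm38), was at 421, 401, 421 and 405 CPM in control and 244, 212, 199.1 and 276 CPM in Alport males. No Alport male reached the control range (log2 −0.74 ± 0.106, adjusted p = 8.19e-05). In females it was at 323 to 367 CPM in control and 171 to 238 CPM in Alport mice (−0.71 ± 0.111, adjusted p = 4.86e-04).

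The core proteins Uqcrc2 (−0.73 in males, −0.65 in females) and Uqcrc1 (−0.60 and −0.52, log2 scale) fell in both sexes, as did Cyc1, cytochrome c1, which is outside the symbol rule (−0.59 and −0.57). The small subunits Uqcrb, Uqcrh, Uqcrq and Uqcr10 fell in females, with log2 fold changes of −0.46 to −0.40, and were not called in males.

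In complex IV, Cox5a, Cox7a2, Cox7a2l and Cox7b fell in both sexes. Cox7a2, the broadly expressed isoform of a small subunit, was at 140, 109.9, 145 and 128 CPM in control and 94.2, 79.0, 87.0 and 112 CPM in Alport males. The highest Alport male was just above the lowest control (log2 −0.41 ± 0.114, adjusted p = 0.00961). In females it was at 103 to 123 CPM in control and 65.6 to 90.4 CPM in Alport mice, without overlap (−0.50 ± 0.110, adjusted p = 0.00357).

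Cox5b, a zinc-binding subunit, was not called. It was at 249, 165, 265 and 203 CPM in control and 200.3, 169, 195 and 222 CPM in Alport males, with full overlap (log2 −0.08), and in females the adjusted p was 0.0678 (−0.35). Cox4i1, the largest nuclear-encoded subunit and outside the symbol rule, fell in both sexes (−0.36 and −0.52, log2 scale), and its isoform Cox4i2 was not called in either (0.26 and 0.27). The complex IV member that rose in males was Cox6b2, the testis-type isoform of Cox6b1 (log2 0.91 ± 0.248, adjusted p = 0.00795), which is described with the NR results. The muscle isoform Cox6a2 was at 1.08 CPM or less in every mouse, and Cox8b, a muscle and brown fat isoform at 1.14 CPM or less, passed the low-count filter in no comparison of 2 groups.

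In complex V, 11 members fell in both sexes, the α, β and γ subunits among them. Atp5b, the catalytic β subunit and the member with the most counts (chr10:128083273-128090391, plus strand, GRCm38), was at 3172, 3239, 3510.3 and 3106 CPM in control and 1929, 1852, 1632 and 2224 CPM in Alport males. The groups did not overlap (log2 −0.69 ± 0.125, adjusted p = 5.19e-04). In females it was at 2738 to 3102 CPM in control and 1517 to 2079 CPM in Alport mice (−0.69 ± 0.127, adjusted p = 0.00121).

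The α subunit Atp5a1 (−0.66 in males, −0.63 in females), the γ subunit Atp5c1 (−0.60, −0.51) and the peripheral stalk subunit Atp5f1 (−0.65, −0.63, log2 scale) fell in both sexes. Of the 3 genes for the same c-ring protein, Atp5g3 fell in both sexes (−0.41, −0.50), Atp5g1 in females (−0.51), and Atp5g2 in neither (−0.40 and 0.07). Atp5k, a small membrane subunit, was not called (0.14 and −0.50). Atp5sl, an assembly factor of complex I rather than an ATP synthase subunit, was at 72.6 to 80.4 CPM in control and 40.7 to 52.7 CPM in Alport males and had the smallest adjusted p under the Atp5 symbols (3.96e-05, log2 −0.67).

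**Figure D3:**
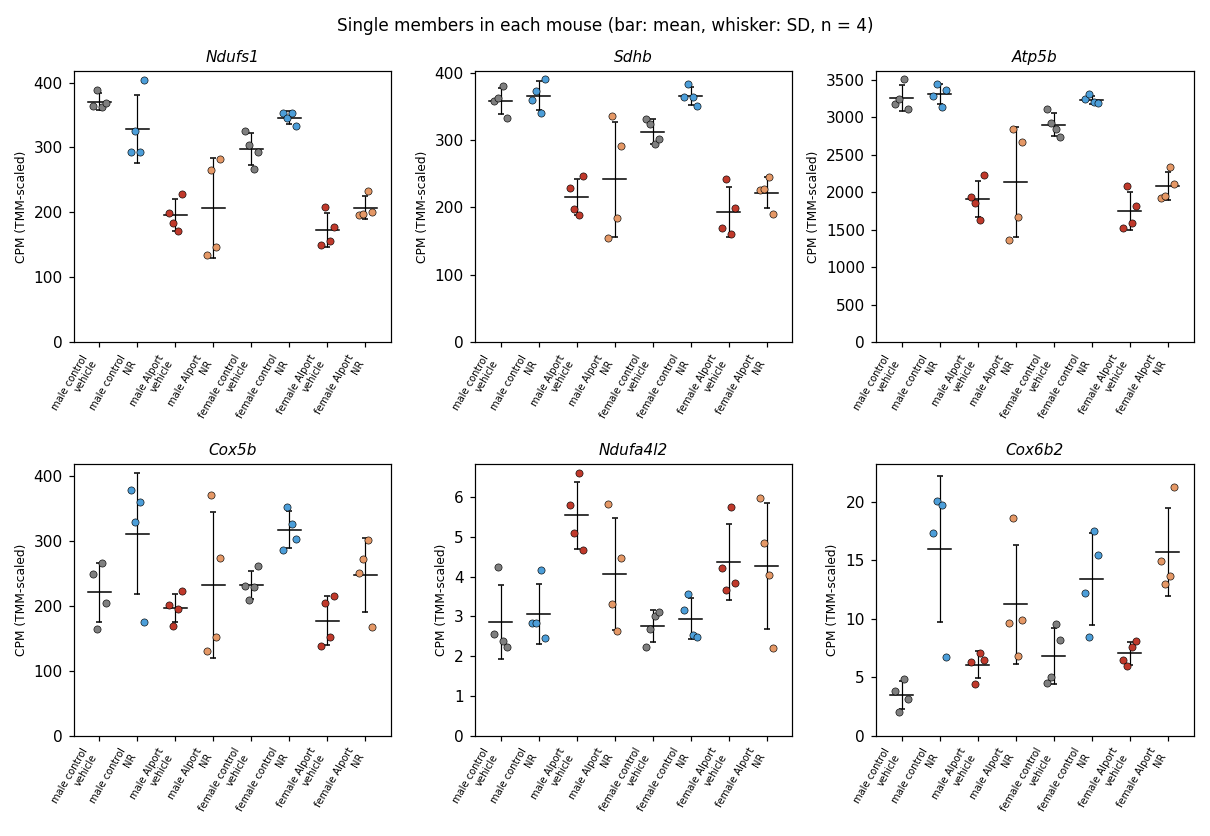
CPM of Ndufs1, Sdhb, Atp5b, Cox5b, Ndufa4l2 and Cox6b2 in each mouse by group, with the mean and SD of 4 mice. Ndufs1, Sdhb and Atp5b are without overlap between vehicle-treated control and Alport mice of each sex, Cox5b overlaps in males, and Cox6b2 is at 2.01 to 4.88 CPM in vehicle-treated control males.

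Genes that work with the members were lower too. Of the 13 protein genes of mitochondrial DNA, 12 fell in each sex (median log2 −0.73 in males and −0.71 in females), further from 0 than the median of the nuclear members. All 14 genes of the citric acid cycle fell in both sexes (−0.65 and −0.61), and 17 of 18 genes of mitochondrial β-oxidation fell in males and 18 in females (−0.60 and −0.57). Of 47 assembly factors, 33 fell in males and 29 in females (−0.36 and −0.37), and of 77 mitochondrial ribosomal proteins 43 fell and 2 rose in males, and 50 fell and 1 rose in females.

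Of 13 transcriptional regulators of respiratory genes, 7 fell and 1 rose in males, and 9 fell and 1 rose in females. Cytosolic ribosomal proteins, whose transcripts are short and abundant, were mostly not called (4 rose and 2 fell of 75 in males, none was called in females).

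Cell type markers moved with the genotype beside these genes. All 10 proximal tubule markers fell in both sexes, with median log2 fold changes of −1.11 in males and −0.93 in females. All 11 immune markers rose in males and 10 in females (medians 3.12 and 2.62), with a summed level of 179 to 207 CPM in control and 1206 to 1606 CPM in Alport males. All 7 fibroblast markers rose in both sexes (2.91 and 2.19), and 6 of 6 podocyte markers rose in males and 5 in females. No defining marker of these 4 cell types was at 0 in any whole group. Fewer cells of a type and less RNA per cell cannot be told apart in bulk tissue, and the part of cell composition in the members' differences was not tested.

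NR in control females was the comparison of treatment with most member calls. Of 78 members tested, 45 rose and none fell, where 4% of all genes tested rose and 2.39% fell, and the median log2 fold change was 0.32 against −0.01 over all genes. By complex, 24 of 37 rose in complex I, 1 of 3 in complex II, 4 of 8 in complex III, 9 of 13 in complex IV and 7 of 17 in complex V. The median was highest in complex III (0.43) and IV (0.38), followed by complex I (0.32), V (0.27) and II (0.22). All 4 mice on NR were above all 4 on vehicle for 56 members, where 8.5% of all genes were. The level of every complex was without overlap between NR and vehicle, from 0.25 higher in complex II to 0.45 higher in complex IV.

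Uqcrq, a small subunit of complex III (chr11:53427922-53430831, minus strand, GRCm38), had the smallest adjusted p of the members. It was at 158, 139.5, 132 and 155 CPM in the 4 vehicle-treated and 183, 212, 203 and 189 CPM in the 4 NR-treated control females. All NR-treated mice were above all vehicle-treated mice, by log2 0.42 ± 0.0728 (adjusted p = 0.00698).

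Cox5b was at 231, 208, 229 and 260.4 CPM on vehicle and 286, 353, 326 and 303 CPM on NR, also without overlap (0.44 ± 0.0813, adjusted p = 0.00876). This subunit had not been called between genotypes. The c-ring gene Atp5g3, whose promoter stretch with the ERR letters is shown above, was at 449 to 498 CPM on vehicle and 576 to 642 CPM on NR (0.37 ± 0.0671, adjusted p = 0.00872). Cox7a1, the heart and muscle isoform of Cox7a2, was at 3.83 to 6.13 and 7.09 to 11.3 CPM (0.93 ± 0.187, adjusted p = 0.0127), and Sdhc was the complex II member called (0.30 ± 0.0630, adjusted p = 0.0164). Ndufs1, the called member with the lowest log2 fold change in Alport mice of both sexes, was not among the calls, although all 4 mice on NR (333 to 354 CPM) were above all 4 on vehicle (267 to 325 CPM).

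The count of 45 depended on how the fit was made. It was 16 to 38 when each mouse was left out in turn (16 without vehicle replicate 2), 15 with total counts alone, 7 with an offset for transcript length and 0 in 1 fit of all 32 mice. The direction was kept, with 75 to 77 of 78 log2 fold changes above 0 under total counts and under the length offset. Beside the members, 12 of 18 β-oxidation genes, 15 of 75 cytosolic ribosomal proteins, 13 of 77 mitochondrial ribosomal proteins and 2 of 13 mitochondrial DNA genes rose. Immune, fibroblast and podocyte markers were not called (0 of 10, 0 of 7 and 0 of 6), and the summed fat markers were at 0.544 to 12.04 CPM on NR, the highest in replicate 3, against 0.869 to 1.05 CPM on vehicle.

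In control males on NR, Cox6b2 was the 1 member called, where 4.45% of all genes tested were called. It was at 3.77, 2.01, 4.88 and 3.09 CPM on vehicle and 17.4, 20.1, 19.7 and 6.76 CPM on NR. The groups did not overlap, and replicate 4 on NR was the lowest of its group (log2 2.23 ± 0.388, adjusted p = 0.0207). The median of the 78 members was 0.25, and 74 were above 0.

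Replicate 4 of this NR group had lower levels of complexes I, III and IV than the other 3, at 6.42, 7.49 and 5.30 mean log2 CPM against 6.90 to 6.97, 7.93 to 7.99 and 5.93 to 6.01. Without it, 17 members were called and the median was 0.38. Without replicate 1 or replicate 3, whose Col4a3 lay in the Alport range, no member was called and the medians were 0.18 and 0.19. The adjusted p of Cox6b2 was then 0.0670 and 0.0563, with log2 fold changes of 2.18 and 2.11. Its call was also lost without vehicle replicate 1, 2 or 4 (adjusted p 0.0767, 0.0654 and 0.0701, log2 2.28, 2.04 and 2.19), so that 5 of 8 single removals ended it. In this comparison 7 of 8 endothelial markers and 6 of 18 β-oxidation genes rose, and the cytosolic ribosomal proteins had a median of 0.65 with none called. Without replicate 1 and without replicate 3 these were 6 and 4 endothelial markers, 2 and 2 β-oxidation genes, and ribosomal medians of 0.48 and 0.54. The summed proximal tubule markers were lower on NR, at 13118 to 19130 CPM against 20112 to 22108 CPM on vehicle, without overlap.

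NR in Alport mice gave fewer calls. In Alport females Cox6b2 was again the 1 member called, where 0.458% of all genes tested were called. It was at 6.43, 5.99, 7.61 and 8.06 CPM on vehicle and 14.9, 13.0, 13.7 and 21.2 CPM on NR, and every NR-treated mouse was above every vehicle-treated mouse (log2 1.17 ± 0.179, adjusted p = 0.0212). The call was lost with the length offset (0.98, adjusted p = 0.136), in 1 fit of all 32 mice (1.16, 0.0613) and without NR replicate 3 or any of the 4 vehicle replicates (adjusted p 0.0523 to 0.102), at log2 fold changes of 1.11 to 1.25.

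The other members in Alport females did not pass. The median of the 78 was 0.38, 76 were above 0 and 44 had an unadjusted p under 0.05, where 16.5% of all genes did. The complex medians were 0.49 for IV, 0.45 for III, 0.38 for I, 0.33 for V and 0.30 for II, and the levels of every complex overlapped between NR and vehicle. Complex IV was at 5.04 mean log2 CPM in NR replicate 4 and at 5.64 to 5.73 in the other 3. The 13 mitochondrial DNA genes had a median of 0.66 and none was called, and 4 of 18 β-oxidation genes rose. The summed immune markers were at 226 to 1377 CPM on NR and 1005 to 1806 CPM on vehicle, and none of 11 was called.

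In Alport males no member was called, and edgeR called 0 of 15500 genes, with 777 (5.01%) at an unadjusted p under 0.05. DESeq2 called 62 genes and no member. The median of the members was 0.16, with 74 of 78 above 0, and it was −0.05 without NR replicate 2 and 0.32 without NR replicate 1.

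The 4 NR-treated Alport males spread widely in the members' levels. The mean over all members was 7.05 and 6.83 log2 CPM in replicates 2 and 4, and 5.88 and 6.05 in replicates 1 and 3, on both sides of the vehicle-treated mice (6.21 to 6.59). Ndufs1 was at 134, 265, 146 and 282 CPM in these 4 mice. The proximal tubule markers spread widely too, at 4350 to 14358 CPM in sum, and the immune markers at 652 to 2087 CPM.

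Over the 9 comparisons of 2 groups, including those described further on, Cox6b2 was the member with the most calls. Per transcript length it made up 2.62% ± 0.497 (SD, n = 4) of Cox6b1 and Cox6b2 together in vehicle-treated control males and 8.74% ± 1.85 on NR (8.68% without replicate 1 and 8.27% without replicate 3), 5.26% ± 0.889 and 8.89% ± 2.10 in Alport males, 5.34% ± 1.44 and 7.20% ± 1.99 in control females, and 7.24% ± 1.27 and 11.8% ± 6.15 in Alport females. Cox6b1 remained the main isoform in every mouse, with at least 79.0%. Cox6b2 was at 4.50, 5.03, 9.53 and 8.14 CPM in vehicle-treated and 12.2, 8.45, 17.5 and 15.5 CPM in NR-treated control females, where the groups overlapped and the adjusted p was 0.103 (log2 0.97). It was at 6.32, 4.38, 7.10 and 6.45 CPM in vehicle-treated and 9.65, 18.6, 6.83 and 9.93 CPM in NR-treated Alport males (0.88 ± 0.306, adjusted p = 0.917). The NR comparisons within a genotype and the genotype comparison on vehicle share vehicle-treated mice. The same 4 vehicle-treated control males also serve the comparisons with Alport males on NR and with control females, so these Cox6b2 calls are not independent.

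Alport mice on NR were also compared with the same vehicle-treated controls as above. In males Cox6b2 rose (log2 1.77, adjusted p = 0.0108), and Atp5sl (−0.64, 0.0223) and Atp5s (−0.47, 0.0436) fell, where 14.4% of all genes tested rose and 6.75% fell. The median of the members was −0.16. In females Cox6b2 rose (1.21, adjusted p = 0.00867) and 15 members fell, where 11.5% of all genes rose and 11.4% fell, with a median of −0.12.

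The 15 included no member of complex IV. Among them were Ndufs1 (−0.52), Ndufs3, Ndufv1 and Ndufa9 of complex I, Sdhb (−0.49) and Sdhc of complex II, Uqcrc2 (−0.44), Uqcrfs1 and Uqcrc1 of complex III, and Atp5b (−0.47), Atp5a1, Atp5f1, Atp5c1 and Atp5sl (−0.48) under the Atp5 symbols. Ndufs1 was at 196.5 to 234 CPM in these Alport females on NR, 151 to 208 CPM in Alport females on vehicle and 267 to 325 CPM in the controls. Without NR replicate 4, the median was 0.00, and 9 members rose and 10 fell. The shares of all genes given above are from the fit with that replicate and are no reference for these counts.

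Between vehicle-treated control females and males, 1 member was higher and 11 were lower in females, where 15.7% of all genes tested were higher and 15.8% lower. The members lower in females were Atp5s (−0.37), Ndufa4, Ndufv3, Ndufb4, Ndufs1 (−0.29), Ndufv1, Uqcrfs1, Ndufa10, Uqcrc2, Atp5f1 and Atp5c1 (−0.19), and Cox6b2 was higher (1.02, adjusted p = 0.0272). Its call was lost without female replicate 3 or 4 or male replicate 1, 2 or 4 (adjusted p 0.0527 to 0.0738). With total counts alone, which moved the median of all genes by 0.19, the direction of the members turned, with 8 higher and 0 lower, while their median stayed below that of all genes, by −0.10. The shares of all genes given for this comparison are from the fit with TMM factors. The interaction of sex and genotype on vehicle called no member at a fold of at least 2 (0.254% of all genes), with a median of −0.16 and 2 members at an unadjusted p under 0.05 (11.8% of all genes), Cox6b2 (−0.86, adjusted p = 0.349) and Ndufb2 (−0.36, adjusted p = 0.363). The interaction of NR and genotype called no gene in either sex (0% of all genes tested, with 8.83% and 9.24% at an unadjusted p under 0.05 in males and females). At that unadjusted p stood Cox6b2 in males (−1.37 ± 0.509, adjusted p = 0.503; −1.32 and −1.25 without NR replicate 1 or 3 of the controls) and Atp5sl in females (0.29 ± 0.117, adjusted p = 0.496).

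The members' fold changes were ordered by transcript length. Members of up to 700 bases had a median log2 fold change of −0.22 in vehicle-treated Alport males, those of over 700 and up to 1200 bases −0.39 and those of over 1200 bases −0.57, with 5 of 35, 17 of 23 and 18 of 20 lower. All genes of these classes had medians of 0.00, −0.08 and 0.01. In females the medians were −0.45, −0.50 and −0.52, with 24, 21 and 19 lower. Spearman's rho between log2 fold change and length was −0.73 in males and −0.46 in females over 78 members, which share the libraries and are not independent.

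For NR the short members had the larger fold changes. In control females the medians were 0.40, 0.30 and 0.22 from the short to the long class (21, 16 and 8 higher), and all genes of these classes had 0.22, 0.12 and −0.02. Spearman's rho was −0.68 in control females, −0.69 in control males (−0.63 and −0.62 without NR replicate 1 or 3), −0.59 in Alport females and 0.10 in Alport males. Complexes differ in length, since complex II runs from 1142 to 3171 bases, complex IV has no member over 1200 bases (360 to 1076), and the medians are 861 for complex I, 541 for complex III and 838 for complex V. Within complex I in vehicle-treated Alport against control males, the medians were −0.18, −0.39 and −0.49 from short to long, with 2 of 14, 9 of 13 and 8 of 10 lower. Members of over 1200 bases had male medians of −0.57 in complex II (2 members), −0.73 in III (3) and −0.66 in V (5). In females, complexes II, III, V and I had medians of −0.56, −0.65, −0.63 and −0.50 in this class.

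**Figure D4:**
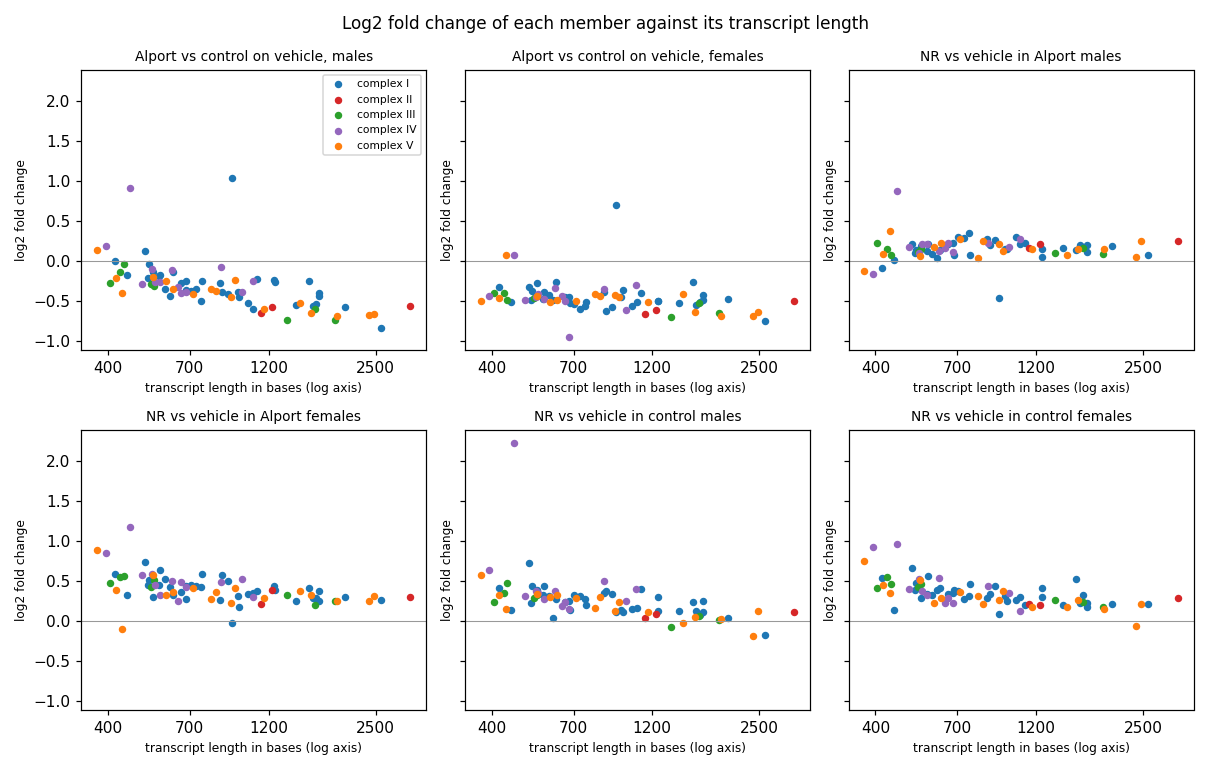
Log2 fold change of each member against its transcript length in bases (log axis), in 6 comparisons, coloured by complex. Spearman's rho is −0.73 for genotype in males and 0.10 for NR in Alport males.

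Libraries differed in the same way among the other genes. The gap between long and short members in a library (in log2 units, after centring each gene over all libraries) followed the gap between 14066 long and 613 short other genes, with Pearson's r = 0.82 and Spearman's rho = 0.78 over 32 libraries, given as a description. The gap was taken between means for the members and between medians for the other genes, so their sizes are not on a like footing. The members' gap was largest in vehicle replicate 2 (0.61 in members, 0.31 in other genes) and NR replicate 4 (0.58 and 0.31) of the control males. In vehicle-treated males the members' gap was 0.11 to 0.61 in control and −0.19 to 0.00 in Alport mice, and that of other genes −0.06 to 0.31 and −0.06 to 0.03. Short members also varied more within groups, with a median SD of 0.346 log2 units against 0.213 for long members.

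**Figure D5:**
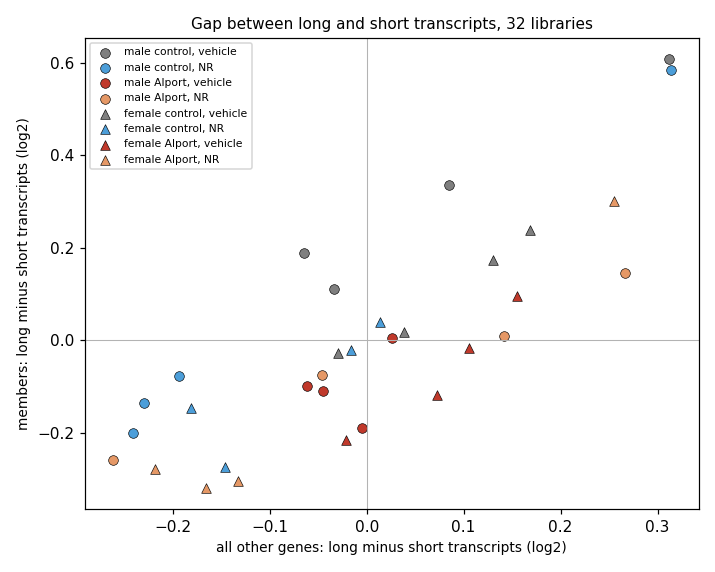
Difference between the means of long and short members (y axis, log2 units) against the difference between the medians of long and short other genes (x axis, log2 units), 1 point per library. Pearson's r is 0.82 over 32 libraries, and the highest points are 2 libraries of control males at 0.61 and 0.58.

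With an offset for length in each library, an alternative added after the data had been seen, 44 members fell and 2 rose in vehicle-treated Alport males (median −0.29) and 64 fell and 1 rose in females (−0.39). Of the calls without the offset, 41 of 42 and 64 of 65 were kept. The shares of all genes given for these comparisons are from the fits without the offset. In control females on NR, 7 of the 45 calls were kept and the median was 0.19, in control males on NR the median was 0.10, and in Alport females on NR it was 0.27 with no member called. The cause of the order by length was not tested.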

How the data were processed

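Poly(A) RNA libraries of the kidney cortex of 32 mice were sequenced (NEBNext Ultra II, per the labels), and reads were processed by the authors through BioJupies. The deposited table holds raw counts per gene symbol and mouse, mapped to mm10 per the submitters' processing notes, and the aligner, annotation and strand are not given in the sources used here. Another deposited table holds those counts as log10(CPM + 1) and served only as a check. Without the strand, reads of a member and of a gene overlapping it on the other strand cannot be told apart, and paralogs such as the 3 c-ring genes may share reads.

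The main test was the robust quasi-likelihood test of edgeR 4.0.16 in R 4.3.3, after filterByExpr (10 counts as the minimum) and TMM scaling. Each comparison had a fit of its own with 8 mice, or 16 mice for an interaction. The Benjamini-Hochberg method adjusted p over all genes tested. Calls were made at an adjusted p under 0.05, and for the interaction of sex and genotype also at a fold of at least 2. Values per mouse are TMM-scaled CPM, and levels of a complex are means of log2 CPM with a prior count of 2. Transcript lengths were taken from GENCODE (GRCm38) for 31914 of 32544 symbols, as the length of 1 principal transcript per gene. Alternatives were DESeq2 1.42.0, limma-voom (limma 3.58.1), RLE factors, total counts alone, other low-count filters, a replicate block, 1 fit of all 32 mice, leaving out each mouse, and a length offset, which was added after seeing the data. Shares of all genes called are those of the main test, and member counts of the alternatives are given without them. The scripts were tested on simulated data. The lowest chi-square per degree of freedom between 2 libraries of a group was 7.96, so no library was counted as a repeat of another.

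The members and the gene lists were chosen with earlier results of these data known. The rule for named genes took the catalytic and core subunits, the members with tissue or condition isoforms, per complex and comparison the member with the smallest adjusted p in each direction and the member farthest from the complex median, members called against the direction of all members, members called where few were, and 5 subunits that the symbol rule leaves out. Other members were named after their values were seen. The paper states that treatment groups were balanced across litters, but the sample labels give no litter or cage for a mouse. The fits could not take litters into account, so p-values measure the spread between these mice.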

Additional observations from a re-analysis of the deposited data

Results flagged for a closer look

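Of 120 groups of 4 mice examined for 1 mouse apart from the other 3, 10 were flagged by Dixon's ratio, and chance alone flags about 1 in 20 groups. The levels of complexes and of all members share their genes, so these flags are not independent. In control males on NR, replicate 4 was far below the other 3 for the mean log2 CPM of complex I (6.42, others 6.90 to 6.97), complex III (7.49, others 7.93 to 7.99), complex IV (5.30, others 5.93 to 6.01) and all members (6.63, others 7.08 to 7.15), and for Ndufa3 (30.0 CPM, others 77.7 to 82.5). In the same mouse Col4a3 was the highest of its group (159 CPM).

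In Alport females on NR, replicate 4 was lowest in complex IV (5.04 mean log2 CPM, others 5.64 to 5.73), and replicate 3 was highest in Ndufs1 (234 CPM, others 196.5 to 201). In control females on NR, Atp5g2 was lowest in replicate 3 (11.4 CPM, others 17.1 to 18.2). In control males on vehicle, complex II was highest in replicate 3 (8.44 mean log2 CPM, others 8.31 to 8.32), and Ndufa4l2 was highest in replicate 2 (4.23 CPM, others 2.24 to 2.55).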

How the results depend on the processing

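The genotype comparisons on vehicle kept their direction under DESeq2, limma-voom, RLE factors, other filters, the block, the length offset and 1 fit of all 32 mice. With total counts alone 20 members were called in males (median log2 fold change −0.012) and 29 in females (−0.22), and of the male calls Cox5a (0.0043), Cox7a2l (0.093), Ndufa8 (0.056) and Ndufv3 (0.088) turned sign. The 32-mouse fit called 42 in females. The log2 of the summed CPM in place of the mean log2 CPM gave −0.67 for complex V and −0.58 for all members in males.

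For NR in control females the calls were 15 with total counts alone, 7 with the length offset (median 0.19) and 0 in the 32-mouse fit. For NR in Alport females they were 0 with the length offset and 0 in the 32-mouse fit, and in control males 2 with DESeq2 and 2 in the 32-mouse fit. For Alport on NR against control on vehicle, males had 6 with DESeq2, 6 with the offset and 20 in the 32-mouse fit, and females 8 with total counts and 6 in the 32-mouse fit. Total counts turned the medians to 0.034 (males) and 0.024 (females), that of females against males to 0.090 and that of the NR-genotype interaction in females to −0.015. Relative to the median of all genes in the same fit, which the scaling shifts too, these were −0.25, −0.10, −0.10 and 0.06, with the direction of the values with TMM factors. Females against males had 2 calls in the 32-mouse fit. The cause of these changes was not tested.

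Correlations of same-numbered mice were −0.17 to 0.27, and 5 of 36 exceeded 0.1. The labels do not say what the replicate numbers mark, and these correlations alone cannot settle whether the numbers pair the mice. With a replicate block, 18 members were called for NR in control females and 8 for Alport females on NR against control, and it moved no other count by over 1.5 times.

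Leaving out each mouse in turn gave these ranges of calls and medians. Alport against control on vehicle had 31 to 60 calls and −0.42 to −0.27 in males, and 49 to 71 and −0.57 to −0.38 in females. NR had 0 to 0 and −0.046 to 0.32 in Alport males, 0 to 2 and 0.29 to 0.48 in Alport females, 0 to 17 and 0.17 to 0.38 in control males, and 16 to 38 and 0.29 to 0.36 in control females. Alport on NR against control on vehicle had 1 to 6 and −0.43 to −0.01 in males, and 8 to 21 and −0.22 to 0.0046 in females. Females against males had 6 to 17 and −0.15 to −0.02. The interactions had no call, with medians of −0.25 to −0.00 for sex and genotype, −0.32 to 0.10 for NR and genotype in males and −0.054 to 0.16 in females.

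Members of up to 700 bases varied more within groups (median SD 0.346 log2 units) than those of over 1200 bases (0.213), which limits the difference that 4 mice a group can show for the short ones.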
